A study of Mus musculus with 6 samples.

Results

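Dystrophin, utrophin and the proteins bound to them are encoded by a small group of genes, of which 8 are described here: *Dmd*, *Utrn*, *Dag1*, *Sgca*, *Sgcb*, *Sgcd*, *Sgce* and *Dtna*. The members were picked out by gene symbol from a list drawn up with earlier results of these data known, and all 8 were found among the 54525 gene rows. RNA-seq was performed on C2C12 cells, an immortalized mouse myoblast line that fuses into multinucleated myotubes when serum is lowered. The D0 group held 3 libraries from myoblasts kept in growth medium with fetal bovine serum. The D5 group held 3 libraries from cultures differentiated for 5 days in medium with horse serum. All 6 samples were labelled wild type, with no treatment and no transgene, and all came from 1 cell line grown without nerve or other tissue. The labels give myoblasts as the cell type on both days. The labels describe cultured cells with 3 samples at each day and do not say whether they were grown on separate occasions, so p-values measure the spread between these samples, which may be partly technical.

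Dystrophin is a long rod-shaped protein that links cortical actin to dystroglycan in the muscle membrane, and utrophin is its close homolog, concentrated at the neuromuscular junction of adult fibers. Dystroglycan crosses the membrane and binds laminin outside the cell, the sarcoglycans stabilize it from the side, and dystrobrevin and the syntrophins bind on the cytoplasmic face and recruit signaling proteins. Loss of dystrophin causes Duchenne muscular dystrophy, and loss of a muscle sarcoglycan causes a limb-girdle muscular dystrophy. In the myogenic program several of these genes are known as part of the machinery that muscle fibers assemble as they mature.

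The 8 members differed widely in how far they moved between myoblasts and myotubes. *Dmd*, *Sgcd*, *Sgca* and *Dag1* rose by 394-fold, 29.5-fold, 5.29-fold and 4.56-fold at D5. The fold of *Dmd* rests on 10 counts over the D0 libraries. Counting error alone gave a 95% interval from 224 to 860.0 for its ratio of summed counts. *Dtna*, *Sgcb* and *Utrn* were 1.35-fold, 1.32-fold and 1.23-fold higher, and *Sgce* fell to 53.2% of its D0 level. By edgeR's quasi-likelihood test with Benjamini-Hochberg adjustment over the 16290 genes tested, 7 of the 8 members were higher at D5 and 1 was lower at an adjusted p under 0.05. The background was high, since 42.2% of all genes tested were called higher and 40.8% lower. The median log2 fold change was 1.31 over the members, from -0.91 to 8.62, and 0.00 over all genes tested. In CPM (counts brought to a common library size with edgeR's TMM factors), every D5 library lay above every D0 library for 7 members and below for *Sgce*, which was so for 42.2% and 41.1% of all genes tested.

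**Figure D1:**
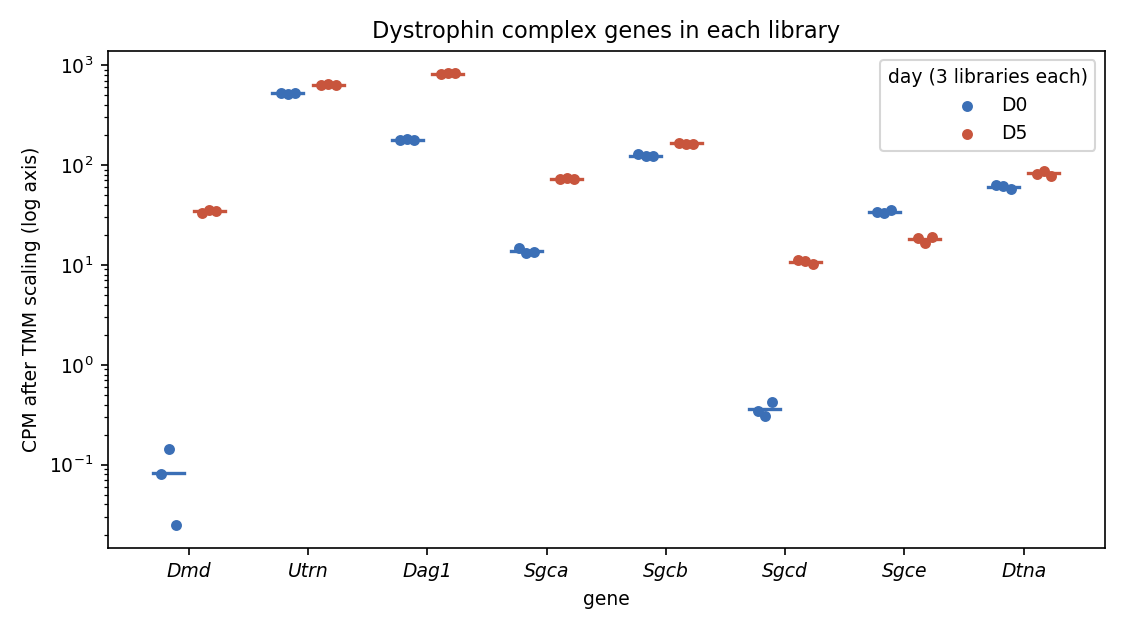
CPM after TMM scaling (log axis) of the 8 member genes in each of 3 D0 and 3 D5 libraries, with points for libraries and short lines for group means. *Dmd* and *Sgcd* show the widest gaps between days, *Utrn*, *Sgcb* and *Dtna* the narrowest (below D0 with ERCC scaling), and *Sgce* is the gene with D5 below D0.

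Part of this depended on how the libraries were scaled. Spike-in RNAs (ERCC) took from 0.726% to 0.859% of the counts at D0 and from 0.720% to 2.09% at D5. Scaling by their sum placed the median of all genes tested at -0.58 on the log2 scale. Of the 16290 genes tested, 1796 were then called higher and 3762 lower. Calls in the higher direction were thus 32.3% of all calls, against 50.8% with TMM. With this scaling *Dmd*, *Sgcd*, *Sgca*, *Dag1* and *Sgce* kept their call, while *Utrn*, *Sgcb* and *Dtna* had log2 fold changes of -0.27, -0.17 and -0.09 and lost theirs. Relative to the median of all genes the 3 values were 0.31, 0.41 and 0.48, near the 0.29, 0.40 and 0.43 of the TMM fit. For these 3 genes the direction is therefore stated relative to the other genes of the library.

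The libraries held from 36555048 to 40895840 gene counts at D0 and from 25449759 to 25811300 at D5, so the D5 libraries were the shallower ones. Markers of myoblasts (*Myf5*, *Pax7*, *Myod1*) were lower at D5 in 3 of 3 cases, and markers of myotubes (*Myog*, *Mymk*, *Ckm*, *Acta1*, *Myh3*, *Tnnt3*) were higher in 6 of 6, with a summed level from 56.6 to 70.3 CPM at D0 and from 11932 to 12763 CPM at D5. The fibroblast markers *Pdgfra*, *Dpt*, *Pi16* and *Lum* also rose, 4 of 4, with a summed level from 1.15 to 1.50 CPM at D0, where *Lum* had 0 counts in every library, and from 53.0 to 64.3 CPM at D5. This rise accompanies the comparison of the days for every gene described here, and its part in the results was not tested. The osteoblast markers *Sp7*, *Bglap*, *Ibsp* and *Dmp1* summed to between 0.133 and 0.214 CPM at D0 and between 0.637 and 1.01 CPM at D5, with 1 tested gene, *Dmp1*, called higher and *Ibsp* at 0. Adipocyte markers (*Adipoq*, *Plin1*, *Cidec*, *Lep*) reached at most 1 count in a library and endothelial or immune markers (*Pecam1*, *Cdh5*, *Ptprc*, *Adgre1*) at most 7. The nerve and Schwann cell markers *Rbfox3* and *Sox10* reached at most 1 count, with *Rbfox3* at 0 throughout. In RNA from a whole culture, a smaller share of cells of a type and less RNA per cell cannot be told apart.

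The gene for dystrophin, *Dmd*, spans 2257 kb of the X chromosome (chrX:82948870-85206141, + strand, GRCm38). Its stretch of 250 bases before the first annotated start is shown with those of *Sgca* and *Dag1*, because these 3 members rose and their RefSeq start coincides with the outer end of the annotated gene. The windows are chrX:82948620-82948869 (+ strand), chr11:94976328-94976577 (- strand) and chr9:108263959-108264208 (- strand), taken from RefSeq on GRCm38.p6, each written 5′ to 3′ up to the base before the start. Capitals mark matches to an E-box (CANNTG, the motif bound by MyoD and myogenin), a MEF2 box or a CArG box, searched on both strands together with the M-CAT motif (CATTCC).
Dmd: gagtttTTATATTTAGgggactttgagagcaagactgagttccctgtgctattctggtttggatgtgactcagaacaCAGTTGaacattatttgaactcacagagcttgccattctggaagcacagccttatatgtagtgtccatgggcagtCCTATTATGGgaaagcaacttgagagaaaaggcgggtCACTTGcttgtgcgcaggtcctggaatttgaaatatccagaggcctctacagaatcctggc
Sgca: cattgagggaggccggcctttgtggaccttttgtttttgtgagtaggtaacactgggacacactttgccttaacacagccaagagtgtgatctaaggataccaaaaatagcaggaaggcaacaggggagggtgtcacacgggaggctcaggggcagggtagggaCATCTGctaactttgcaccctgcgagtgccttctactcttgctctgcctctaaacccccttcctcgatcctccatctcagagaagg
Dag1: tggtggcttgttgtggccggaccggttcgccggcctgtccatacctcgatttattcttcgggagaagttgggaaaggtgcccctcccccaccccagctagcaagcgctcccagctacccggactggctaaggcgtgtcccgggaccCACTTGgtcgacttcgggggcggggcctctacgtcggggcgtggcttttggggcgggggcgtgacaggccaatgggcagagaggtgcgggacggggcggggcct
The *Dmd* window held a MEF2 box 244 bases and a CArG box 98 bases before the start, with E-boxes at 173 and 61 bases. The *Sgca* window held 1 E-box at 86 bases and the *Dag1* window 1 E-box at 104 bases, and none of these matches overlapped another. Of all 32851 promoter windows of this length, 66.2% held an E-box, 12.6% an M-CAT motif, 2.92% a MEF2 box and 1.47% a CArG box. A match here describes the letters of the window and not a site in use. RefSeq windows were found for 6 of the 8 members, those without being *Sgce* and *Dtna*. Of the windows not printed, that of *Utrn* held 7 E-boxes, that of *Sgcd* 2 E-boxes and 1 M-CAT motif, and that of *Sgcb* no match. The *Utrn* E-boxes at 98 and 96 bases overlapped each other. *Dmd* and *Dag1* each had a second window, the first at a start far inside the gene with no match and the other with the same E-box, 247 bases before its start. None of the windows not printed had its start at the outer end of the annotated gene. The start was base 12861735 for *Utrn* and 47379325 for *Sgcd*, against outer ends at 12869365 and 47988969. Whether any window acts as a promoter in these cells was not tested, so the matches cannot be set against the fold changes.

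Among the members that bind actin, *Dmd* was close to undetected in myoblasts. Its counts were 3, 6 and 1 in the D0 libraries and 837, 875 and 855 in the D5 libraries. The groups were far apart, and the D5 libraries differed little from each other. Scaled values averaged 0.0825 ± 0.0590 CPM in myoblasts and 34.4 ± 1.09 CPM in myotubes (SD, n = 3), a log2 fold change of 8.62 (SE 0.144, 95% confidence interval 8.33 to 8.91, adjusted p = 2.1e-55 by edgeR's quasi-likelihood test). With only 10 counts over the D0 libraries the size of the fold was loosely fixed: from the summed counts the ratio was 412, with a 95% interval from 224 to 860.0 that covers counting error only. Without D0 replicate 2, which held 6 of the 10 counts, the log2 fold change was 9.28, and without D0 replicate 3 it was 8.19. Both lie outside the confidence interval of the fit. That interval is narrower than the counting interval and understates the uncertainty. Counts were made per gene, so full-length transcripts and the short ones from starts inside *Dmd* were summed.

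*Utrn* (chr10:12382188-12869365, - strand) gave a different picture. Its counts were 19520, 21740 and 21092 at D0 and 15919, 15895 and 15874 at D5. The raw counts were thus lower in the shallower D5 libraries, and the order turned after scaling. Scaled values averaged 521 ± 3.36 CPM in myoblasts and 639 ± 5.66 CPM in myotubes (SD, n = 3), a log2 fold change of 0.30 (SE 0.0315, 95% confidence interval 0.23 to 0.36, edgeR adjusted p = 3.7e-13), and it was -0.27 with ERCC scaling.

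A ratio of 2 genes within one library does not depend on how libraries are scaled. The log2 ratio of *Dmd* to *Utrn* counts (0.5 added to each) was -12.45, -11.71 and -13.78 at D0 and -4.25, -4.18 and -4.21 at D5. The ratio rose in favor of *Dmd* by 8.43 on the log2 scale, 345-fold, with no overlap, and adding 5 counts instead gave 7.12. An exact permutation test, two-sided, gave p = 0.1, the smallest that 3 against 3 libraries allow, and 0.1 after adjustment over the 3 ratios tested. *Utrn* was still the more abundant gene at D5: in TPM (counts per exonic length, as a share of the library), *Utrn* stood at 122 ± 1.63 and *Dmd* at 4.74 ± 0.0607 (SD, n = 3). *Dmd* made up 0.0114% ± 0.00822 of the summed TPM of the pair at D0 and 3.73% ± 0.0823 at D5. With the longest coding transcript as length the D5 share was 4.28%. The 2 genes shared no stretch of 50 bases in their transcripts, so reads of that length could be assigned to one of them.

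**Figure D2:**
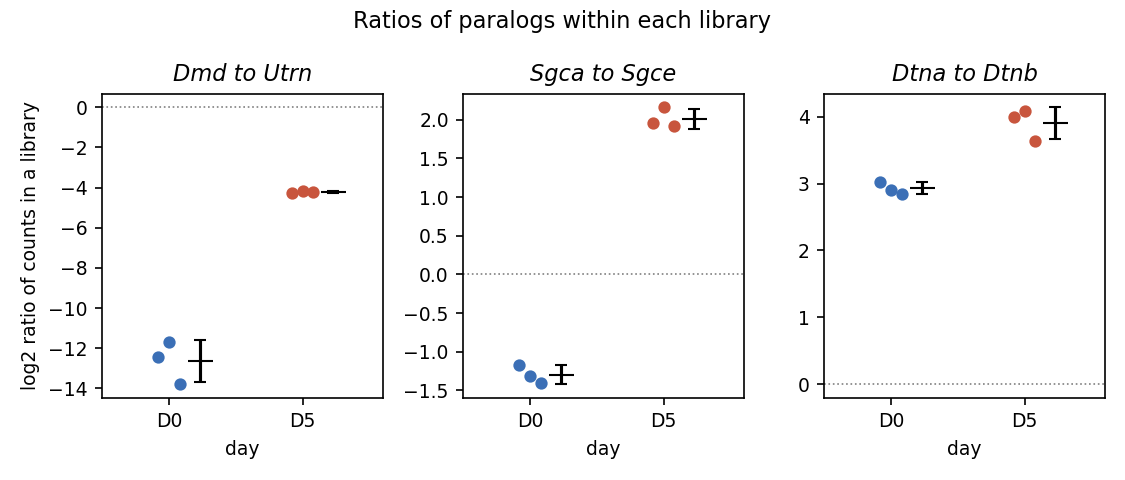
Log2 ratios of counts within each library for *Dmd* to *Utrn*, *Sgca* to *Sgce* and *Dtna* to *Dtnb* at D0 and D5, with points for the 3 libraries of a day and black bars for mean ± SD. All 3 ratios were higher at D5 with no overlap, and only the ratio of *Sgca* to *Sgce* crossed 0, from below in myoblasts to above in myotubes. The counts are not corrected for gene length. At D0 *Sgca* was above *Sgce* per exonic length (29.0 against 11.7 TPM) and below it per longest coding transcript (21.5 against 51.4 TPM).

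*Dag1* (chr9:108204634-108263958, - strand) encodes the precursor that is cleaved into alpha- and beta-dystroglycan. Its counts were 6633, 7731 and 7160 at D0 and 20234, 20365 and 20567 at D5. The D5 libraries were higher even before scaling. Scaled values averaged 179.6 ± 3.74 CPM in myoblasts and 819.6 ± 12.1 CPM in myotubes (SD, n = 3), a log2 fold change of 2.19 (SE 0.0335, 95% confidence interval 2.12 to 2.26, edgeR adjusted p = 9.9e-58), and 1.63 with ERCC scaling. Per exonic length it went from 103 ± 3.00 to 423 ± 3.35 TPM and was the most abundant member at D5, 3.06-fold above the next.

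The sarcoglycans are single-pass membrane proteins, and the complex of striated muscle holds alpha, beta and delta among its subunits, while epsilon is a widely expressed paralog of alpha. *Sgca* (chr11:94962791-94976327, - strand), for alpha-sarcoglycan, had counts of 556, 558 and 539 at D0 and 1801, 1846 and 1810 at D5. Every D5 library was well above every D0 library. Scaled values averaged 13.8 ± 0.876 CPM in myoblasts and 73.1 ± 1.63 CPM in myotubes (SD, n = 3), a log2 fold change of 2.40 (SE 0.0499, 95% confidence interval 2.30 to 2.50, edgeR adjusted p = 6.7e-50).

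*Sgcd* (chr11:46896253-47988969, - strand), for delta-sarcoglycan, started from a very low level. Its counts were 13, 13 and 17 at D0 and 281, 268 and 251 at D5, which put the groups far apart. Scaled values averaged 0.359 ± 0.0575 CPM in myoblasts and 10.7 ± 0.566 CPM in myotubes (SD, n = 3), a log2 fold change of 4.88 (SE 0.156, 95% confidence interval 4.57 to 5.20, edgeR adjusted p = 5.4e-39). The ratio of summed counts was 29.9, with a 95% counting interval from 22.0 to 41.6, wider than the interval of the fit.

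*Sgcb* (chr5:73632749-73647790, - strand), for beta-sarcoglycan, the partner on which assembly of the complex is known to depend, was well expressed on both days. Its counts were 4795, 5158 and 4932 at D0 and 4185, 4006 and 4054 at D5, lower at D5 before scaling. Scaled values averaged 124 ± 3.13 CPM in myoblasts and 164 ± 2.24 CPM in myotubes (SD, n = 3), a log2 fold change of 0.40 (SE 0.0339, 95% confidence interval 0.33 to 0.47, edgeR adjusted p = 4.5e-17), and -0.17 with ERCC scaling.

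*Sgce* (chr6:4674350-4747207, - strand), for epsilon-sarcoglycan, an imprinted gene mutated in myoclonus-dystonia, was the member that fell. Its counts were 1254, 1387 and 1432 at D0 and 462, 412 and 477 at D5. All 3 D5 libraries were below the D0 libraries. Scaled values averaged 34.0 ± 1.37 CPM in myoblasts and 18.1 ± 1.25 CPM in myotubes (SD, n = 3), a log2 fold change of -0.91 (SE 0.0560, 95% confidence interval -1.02 to -0.80, edgeR adjusted p = 1.6e-23), and -1.52 with ERCC scaling.

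The log2 ratio of *Sgca* to *Sgce* counts was -1.17, -1.31 and -1.41 at D0 and 1.96, 2.16 and 1.92 at D5. Counts of the epsilon gene thus exceeded those of the alpha gene in every myoblast library and were exceeded by them in every myotube library. The shift was 3.31 on the log2 scale, or 9.94-fold (exact permutation test, two-sided, p = 0.1, the smallest possible, adjusted p = 0.1). No stretch of 50 bases was shared between the transcripts of both genes. Which of them was more abundant per length in myoblasts depended on the length used: with all exonic bases *Sgca* had 29.0 TPM and *Sgce* 11.7, and with the longest coding transcript *Sgca* had 21.5 and *Sgce* 51.4. In myotubes *Sgca* was above *Sgce* with either length, at 138 against 5.59 TPM and at 104 against 25.0 TPM.

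The 4 sarcoglycan members were also set against their own sum. *Sgca*, *Sgcb*, *Sgcd* and *Sgce* together had 153 ± 2.55 TPM at D0 and 281 ± 5.45 TPM at D5 (SD, n = 3). In myoblasts the sum was mostly *Sgcb*, at 73.2% ± 0.429, with *Sgca* at 19.0% ± 0.633, *Sgce* at 7.65% ± 0.420 and *Sgcd* at 0.104% ± 0.0173. In myotubes *Sgca* at 49.2% ± 0.890 and *Sgcb* at 47.3% ± 0.764 held nearly all of it, with *Sgce* at 1.99% ± 0.150 and *Sgcd* at 1.52% ± 0.0755. The delta gene was the least abundant of the 4 on both days. With the longest coding transcript as length, a choice added after the values were seen, *Sgce* held 31.8% at D0 and 10.2% at D5, and *Sgcd* 4.36% at D5.

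**Figure D3:**
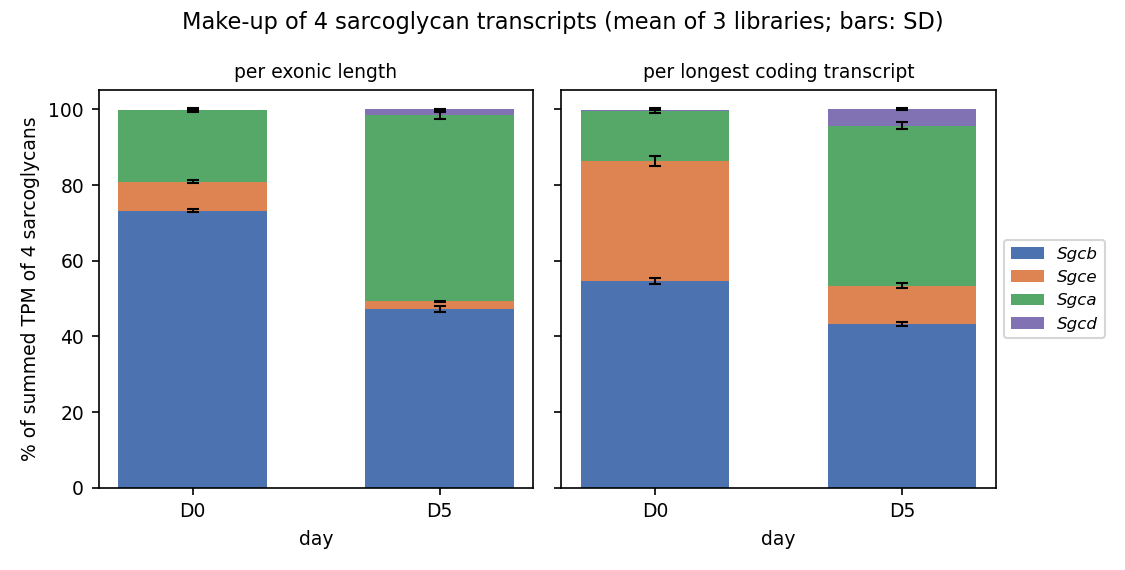
Share (%) of each sarcoglycan gene in the summed TPM of 4 sarcoglycan genes at D0 and D5, as stacked means of 3 libraries with SD bars at the top of each segment, computed per exonic length (left) and per longest coding transcript (right). *Sgcb* holds the largest share at D0 with both lengths, *Sgca* and *Sgcb* hold similar shares at D5, and the *Sgce* segment at D0 is much larger with the coding length.

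*Dtna* encodes alpha-dystrobrevin, which binds dystrophin and the syntrophins. It lies on chromosome 18 from base 23415135 to 23659715 (+ strand, GRCm38), and 0.532% of its exonic bases overlap a gene on the opposite strand. Its counts were 2344, 2610 and 2328 at D0 and 2046, 2170 and 1923 at D5, with lower raw values in the shallower libraries. Scaled values averaged 60.8 ± 2.62 CPM in myoblasts and 82.3 ± 5.43 CPM in myotubes (SD, n = 3), a log2 fold change of 0.44 (SE 0.0422, 95% confidence interval 0.35 to 0.52, edgeR adjusted p = 2.1e-13), and -0.09 with ERCC scaling. Its paralog *Dtnb*, for beta-dystrobrevin, which is best known outside muscle, had counts of 286, 347 and 322 at D0 and 127, 128 and 154 at D5. The log2 ratio of *Dtna* to *Dtnb* counts went from 3.03, 2.91 and 2.85 at D0 to between 3.64 and 4.08 at D5, a shift of 0.98 or 1.97-fold without overlap (exact permutation test, two-sided, p = 0.1, adjusted p = 0.1).

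Ordered by TPM per exonic length, the members in myoblasts ran *Sgcb* (112), *Utrn* (111), *Dag1* (103), *Sgca* (29.0), *Dtna* (13.1), *Sgce* (11.7), *Sgcd* (0.159) and *Dmd* (0.0126). The ranges of *Sgcb* and *Utrn* overlapped, and all other neighbors were separate. In myotubes the order was *Dag1* (423), *Sgca* (138), *Sgcb* (133), *Utrn* (122), *Dtna* (15.9), *Sgce* (5.59), *Dmd* (4.74) and *Sgcd* (4.26), with overlap between *Sgca* and *Sgcb*. With the longest coding transcript as length, *Utrn* led in myoblasts at 113 TPM, *Dag1* still led in myotubes at 356 TPM, and *Dmd* was last on both days.

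The other dystrophin-associated proteins moved in both directions. Of 10 listed genes, 7 were tested, and at D5 5 of these were higher and 2 lower, beside 42.2% and 40.8% of all genes tested. The median log2 fold change of the list was 2.20, also with *Cav3* at its lower bound. The largest rises were in *Cav3*, for the muscle caveolin, with 0, 1 and 0 counts at D0 and 615, 668 and 633 at D5, at least 341-fold higher against a limit of 3 counts per library, and in *Nos1*, for the neuronal nitric oxide synthase that syntrophin anchors, with 10, 12 and 7 counts at D0 and 306, 303 and 299 at D5. The log2 fold change of *Nos1* was 5.63 (SE 0.161, edgeR adjusted p = 1.0e-41). From its summed counts the ratio was 50.2, with a 95% counting interval from 34.7 to 75.5, wider than the interval of the fit.

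Genes for syntrophins, adapters that bind dystrophin and dystrobrevin, moved in different directions. *Sntb1* rose, with a log2 fold change of 2.29 (SE 0.0406), while *Sntb2* fell by 0.38 (SE 0.0375) on the log2 scale. *Sntg1* reached at most 3 counts in a library and *Sntg2* had 0 counts in all of them. *Drp2*, a short relative of dystrophin known from Schwann cells, rose by 2.20 (SE 0.0605) and *Sspn*, for sarcospan, by 0.63 (SE 0.0433), and *Dtnb* fell by 0.54 (SE 0.0968). *Sgcz*, for zeta-sarcoglycan, had 7, 6 and 5 counts at D0 and 0 in every D5 library, and was too low to be tested. With ERCC scaling the rise of *Sspn* shrank to 0.07 and its call was lost. *Sntb2* (-0.97) and *Dtnb* (-1.16) had larger falls than with TMM, yet were not called (edgeR adjusted p = 0.127 and 0.0732). This left 4 genes of the list called higher and 0 lower, beside 1796 higher and 3762 lower among all 16290 genes tested.

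**Figure D4:**
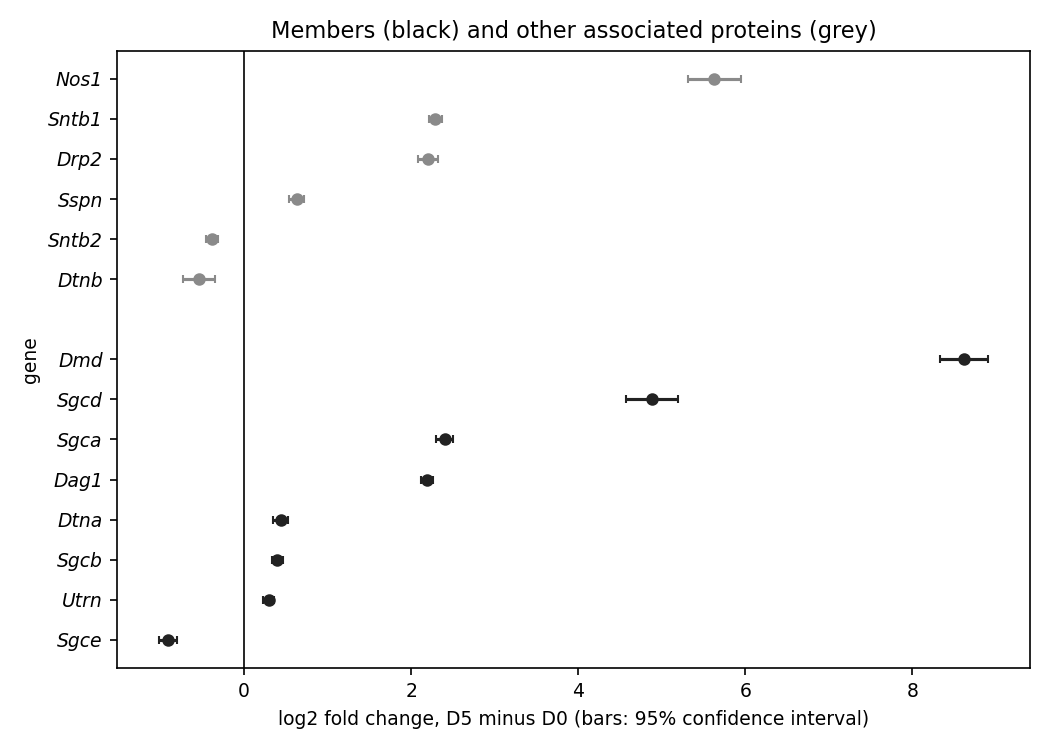
Log2 fold change (D5 minus D0) with its 95% confidence interval for the 8 members (black) and 6 other dystrophin-associated genes that were tested (grey), from edgeR with TMM scaling. For *Dmd*, *Sgcd* and *Nos1*, which had few counts at D0, the bars are narrower than the counting intervals. *Sgce* is the lone member left of 0 and *Sntb2* and *Dtnb* are the other genes left of 0 (*Utrn*, *Sgcb* and *Dtna* move to the left of 0 with ERCC scaling), while *Cav3* is not drawn because its fold is a lower bound.

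Genes listed for the glycosylation of dystroglycan showed small differences in both directions, unlike the 4.56-fold rise of *Dag1* itself. Of 17 listed genes, 16 were tested, with 8 higher and 6 lower at D5 and a median log2 fold change of 0.07, from -0.56 to 1.01, beside 42.2% higher and 40.8% lower among all genes tested. The 8 included *Pomgnt1* at a log2 fold change of 0.08 (edgeR adjusted p = 0.0405), and 7 were called higher with DESeq2, with upper-quartile or total-count scaling, with no filter and in 5 of the 6 fits without a library. *Pomgnt2* (119, 153 and 107 counts at D0, 147, 153 and 174 at D5), *B3galnt2* and *Dolk* had the largest changes, with log2 fold changes of 1.01, 0.88 and 0.74 (edgeR adjusted p = 1.1e-11, 7.6e-26 and 1.5e-18). With ERCC scaling edgeR called 0 of the 16 in either direction, and 3 had an unadjusted p under 0.05. Among all 16290 genes tested, 1796 were then called higher and 3762 lower.

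Among 9 genes for extracellular ligands of dystroglycan, 5 were tested, with 3 higher and 2 lower at D5, beside 42.2% and 40.8% of all genes tested. The median log2 fold change of the list was 0.24. *Nrxn3* encodes a neurexin, of a family of neuronal adhesion proteins that bind alpha-dystroglycan. It had 3, 5 and 4 counts at D0 and 2387, 2211 and 2256 at D5, a log2 fold change of 9.79 (edgeR adjusted p = 1.5e-66). With so few counts at D0 the size of this fold is loosely fixed, and its counting interval was not computed. *Lama5*, for a laminin chain, fell by 0.85 on the log2 scale (adjusted p = 2.0e-34 in edgeR). *Agrn*, for agrin, which clusters acetylcholine receptors, was higher by 0.34 with TMM and at -0.22 with ERCC scaling. Under ERCC scaling 1 gene of the list was called in each direction, beside 1796 higher and 3762 lower among all 16290 genes tested.

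Of 8 cytoplasmic partners, 7 were tested, with 6 higher and 1 lower at D5, beside 42.2% and 40.8% of all genes tested. The median log2 fold change of the list was 0.95, also with *Pgm5* at its lower bound. *Pgm5*, for aciculin, a dystrophin- and utrophin-binding protein of adherens-type junctions, had 2, 3 and 2 counts at D0 and 5812, 5567 and 5852 at D5, at least 3065-fold higher. *Synm*, for the intermediate filament protein synemin, rose by 3.00 on the log2 scale (edgeR adjusted p = 3.7e-34), and *Ank3*, for ankyrin-G, by 1.87 (edgeR adjusted p = 4.6e-41). *Ank2*, for ankyrin-B, was the gene of the list that fell by the test, with a log2 fold change of -1.46 (edgeR adjusted p = 4.1e-39). With ERCC scaling 3 of the partners were called higher and 1 lower, beside 1796 higher and 3762 lower among all 16290 genes tested.

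Patterns over the 6 libraries were compared by the Euclidean distance between log2 CPM values centered on each gene's D0 mean. A prior count of 2 entered the log2 values, which weighs on *Dmd* with its 3, 6 and 1 counts at D0. Among 11316 genes, those most like each member were sought. For *Dmd* these were *Sfrp2* (distance 0.382), *Pvalb* (0.559) and *Trp63* (0.612). For *Dag1* they were *Myo18a* (0.0355), *Drp2* (0.0458) and *Tef* (0.0802), and for *Sgca* they were *Fam102a*, *Ebp* and *Anxa11*, from 0.0975 to 0.124. *Ccdc162* was nearest to *Sgcd* (0.109), *Mphosph6* to *Sgce* (0.0509), *Mzt1* to *Utrn* (0.0410), *Rab18* to *Sgcb* (0.0350) and *Ndufa8* to *Dtna* (0.0616). With 2 groups of libraries, likeness here mostly means a similar fold change.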

How the data were processed

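RNA-seq was performed on 3 D0 and 3 D5 libraries of C2C12 cells, grouped by GEO's labels. The authors deposited raw counts per gene, made with featureCounts from reads mapped to GRCm38 and not normalized, and their notes name DESeq2 1.6.3. The labels and the methods name different aligners. Annotation release and strand setting are not given in the sources used here, so overlapping genes on opposite strands cannot be told apart. Neither the 92 ERCC rows nor a nameless row that repeats the column total entered library sizes or tests.

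From the counts, TMM factors, filterByExpr on the 2 groups and quasi-likelihood tests (robust fit) used edgeR 4.0.16 (R 4.3.3), with Benjamini-Hochberg adjustment and a threshold of 0.05. The SE is the size of the log2 fold change over the root of the F statistic. For genes with few counts at D0, the interval from this SE can be narrower than counting error, as for *Dmd*, *Sgcd* and *Nos1*. TPM used exonic length in GENCODE vM21 for 53308 of the genes. Folds against groups at or under 3 counts in every library are lower bounds, and this limit covers counting error only. No library repeated another: chi-square over degrees of freedom was 2.16 to 3.45 between replicates. The scripts were tested on simulated data. Alternatives were DESeq2 1.42.0, upper-quartile, total-count and ERCC scaling, other filters, a replicate block and leaving out each library. From each further list the 3 genes with the largest change past the threshold were named, and for the dystrophin-associated proteins all. The closest genes had a mean of at least 100 counts. The members and lists were chosen with earlier results of these data known. Some genes of these lists are not reported here and were left out of the counts.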

Additional observations from a re-analysis of the deposited data

How the results depend on the processing

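ERCC spike-in scaling changed the most calls. It called 5558 of the 16290 genes tested, 1796 higher and 3762 lower. Among the members 4 were called higher and 1 lower, with a median of 0.77. The same scaling turned *Utrn* to -0.27, *Sgcb* to -0.17, *Dtna* to -0.09 and *Agrn* to -0.22 on the log2 scale. The edgeR adjusted p was from 0.708 to 0.904 for these 4 genes. The ERCC share ranged from 0.720% to 2.09% within D5. Of 103 refitted values of the members, 100 kept direction and call and 3, all with ERCC scaling, did not. The member median was 1.23 with total counts, 1.26 with no filter and 0.44 with at least 10 counts in every library, where *Dmd* was not tested and 6 members were called higher. The glycosylation genes called higher were 7 in place of 8 with DESeq2, upper-quartile or total-count scaling and no filter, and 7 to 8 without each library; those called lower were 7 in place of 6 with total counts. The *Dmd* to *Utrn* ratio rose by 7.12 with a pseudocount of 5. Leaving out each library gave 13146 to 13266 genes called, 7 members higher and 1 lower in all 6 fits, and member medians from 1.29 to 1.33. The 3 ratios then ranged from 7.86 to 8.90 (*Dmd* to *Utrn*), from 3.24 to 3.38 (*Sgca* to *Sgce*) and from 0.89 to 1.11 (*Dtna* to *Dtnb*). At 10 counts in all at D0, depth limits the fold of *Dmd*.

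With the replicate number as a block, 13589 genes were called, 7 members higher and 1 lower, with a median of 1.31. The block changed the call of no member. The numbers were not taken as pairs: same-numbered libraries correlated at 0.03 to 0.06 in their deviations, although all 6 correlated best with their own number.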
